A study of Mus musculus with 6 samples.

Results

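The clade A serpins described here are 10 secreted proteins of the liver, taken from the deposited table of 54532 genes by their gene names. They are Serpina1a, Serpina1b, Serpina1c, Serpina1d and Serpina1e (alpha-1 antitrypsin), Serpina3k, Serpina3m and Serpina3n (relatives of antichymotrypsin), Serpina6 (corticosteroid-binding globulin) and Serpina7 (thyroxine-binding globulin). RNA of whole liver was sequenced from 3 gSpns1-cKO and 3 control mice on the C57BL/6 background, 1 library each. The gSpns1-cKO animals carried floxed Spns1 alleles and a Cre-ERT2 recombinase at Rosa26, which is active in the whole body and not in hepatocytes alone, and tamoxifen (50 mg/kg, intraperitoneal, postnatal days 11, 13 and 15) was given to remove exon 3. Spns1 encodes a transporter that exports lysophospholipids from the lysosome. The controls are floxed littermates without Cre in the study's text and wild type (WT) in the labels. Whether the controls received tamoxifen, and the age at which these livers were taken, are not given in the sources used here.

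Serpins are proteins that trap a protease by offering it a flexible reactive centre loop as bait. Once the loop is cut, the serpin changes its shape and locks the protease in an inactive complex, so each inhibitor molecule works a single time. Hepatocytes secrete alpha-1 antitrypsin in very large amounts, and its best known target is the elastase of neutrophils. Humans have 1 functional gene for alpha-1 antitrypsin, whereas inbred mice carry several near-identical copies next to each other. Serpina6 and Serpina7 keep the serpin fold but carry hormones in plasma, cortisol or corticosterone and thyroid hormone, and do not inhibit proteases.

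In gSpns1-cKO livers most of these transcripts were lower, and none passed the test as higher. Serpina1e, Serpina7, Serpina3k and Serpina1c showed the lowest levels relative to control, with gSpns1-cKO means at 0.0215, 0.134, 0.176 and 0.250 of the control means. Serpina1a, Serpina1d and Serpina1b were lower by 2.42-fold, 1.79-fold and 1.66-fold. Serpina3n, Serpina6 and Serpina3m did not pass the test. All levels are CPM, counts divided by a common library total that is scaled by TMM (edgeR's correction for differences in RNA composition), given as mean ± SD with n = 3 mice per group. The test was edgeR's quasi-likelihood F test, with p adjusted by Benjamini-Hochberg over 15449 genes. At an adjusted p under 0.05, 7 of the 10 members passed, beside 41.8% of all genes tested. All 7 were lower and 0 were higher, beside 20.5% of all genes lower and 21.3% higher. Of the members, 5 were lower and at least 2-fold apart, beside 5.29% of all genes. The groups did not overlap for 7 members, all lower in gSpns1-cKO, whereas 27% of all genes did not overlap and were lower. All 10 members passed the filter on low counts, and no library had fewer than 378 counts of any of them. The median log2 fold change was -1.06 over the members and 0.01 over all genes tested. In whole tissue, fewer hepatocytes and less RNA per hepatocyte cannot be told apart.

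**Figure D1:**
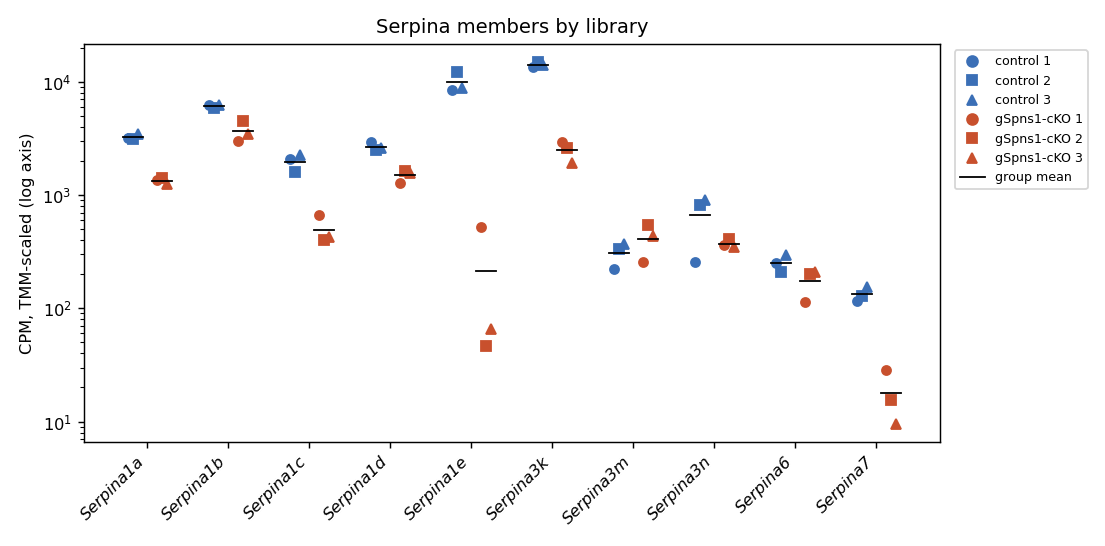
Level of each member in each library, in TMM-scaled CPM on a log axis, with controls in blue, gSpns1-cKO in red and a black line at each group mean. The groups are separate for all members but Serpina3m, Serpina3n and Serpina6, and Serpina1e spans the widest range on this axis, from 12257.5 CPM in control 2 to 46.1 CPM in gSpns1-cKO 2.

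The libraries held between 30350002 and 35295611 counts. TMM factors ran from 0.834 to 0.873 in control and from 1.16 to 1.18 in gSpns1-cKO libraries, so the choice of scaling moves every fold change. With library size alone, the median over all genes was 0.46 on the log2 scale instead of 0.01, and 7289 genes were called higher and 970 lower, against 3286 higher and 3166 lower with TMM. Under that scaling Serpina1b (-0.29 on the log2 scale, adjusted p = 0.210) and Serpina1d (-0.40, adjusted p = 0.0599) were no longer called by edgeR's test, and Serpina3m became higher (0.88, adjusted p = 0.0369), which left 5 members lower and 1 higher. The targeted gene was lower but not lost. Spns1 had 35.8, 50.7 and 34.6 CPM in controls 1 to 3 and 17.8, 30.6 and 17.7 CPM in gSpns1-cKO 1 to 3. The groups did not overlap (log2 fold change -0.87, SE 0.25, adjusted p = 0.0300), and because counts over all exons were deposited, this checks the loss of exon 3 only in part. With library size alone Spns1 was not called (-0.43, adjusted p = 0.213), nor without control 2, gSpns1-cKO 1 or gSpns1-cKO 3 (adjusted p between 0.0785 and 0.0910). All 6 livers were of male type, with 0 to 5 counts of Xist and at least 324 counts of each of the Y-linked genes Ddx3y, Kdm5d, Uty and Eif2s3y, of which Kdm5d alone passed the test (log2 fold change 0.47).

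**Figure D2:**
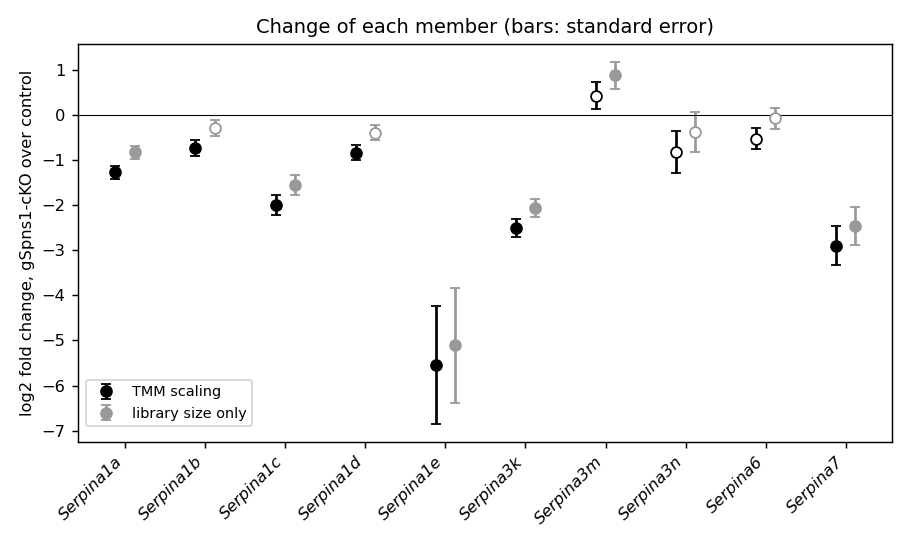
Log2 fold change of each member, gSpns1-cKO over control, with its standard error as a bar. Black points use TMM scaling and grey points library size alone, and filled points have an adjusted p under 0.05, open points an adjusted p of 0.05 or above. All grey points lie above the black ones, and Serpina1b, Serpina1d and Serpina3m change between filled and open.

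The alpha-1 antitrypsin genes lie next to each other on the minus strand of chromosome 12 (GRCm38), in the order Serpina1b, Serpina1d, Serpina1a, Serpina1c and Serpina1e of rising coordinates. Their coding sequences, 1239 bases each, are 96.3% to 98.5% identical between any pair, by the GENCODE M21 transcripts. Per base, the copies differed more from Serpina1b around the loop that meets the protease than elsewhere, although most differing bases lay outside it. The coding sequence of the loop is shown for this reason. The windows of 87 bases (29 codons) around the loop lie in 1 coding exon, and capitals mark bases that differ from Serpina1b.
Serpina1a (chr12:103853750-103853836, minus strand): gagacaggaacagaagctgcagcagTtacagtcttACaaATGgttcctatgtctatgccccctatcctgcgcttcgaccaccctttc
Serpina1b (chr12:103728317-103728403, minus strand): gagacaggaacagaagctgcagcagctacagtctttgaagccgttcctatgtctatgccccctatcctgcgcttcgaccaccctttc
Serpina1c (chr12:103895087-103895173, minus strand): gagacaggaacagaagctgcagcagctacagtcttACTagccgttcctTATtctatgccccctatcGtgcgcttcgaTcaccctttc
Serpina1d (chr12:103763755-103763841, minus strand): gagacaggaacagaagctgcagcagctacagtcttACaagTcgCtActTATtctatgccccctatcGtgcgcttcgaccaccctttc
Serpina1e (chr12:103947093-103947179, minus strand): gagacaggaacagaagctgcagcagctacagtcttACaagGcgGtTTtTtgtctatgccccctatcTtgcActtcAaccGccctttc
Counted from 1 at the 5′ end of the window, Serpina1c and Serpina1d share T36A, G37C, A49T, T50A, G51T and C67G, where the first base is that of Serpina1b. Serpina1e shares T36A, G37C and A49T with these and has C67T at the position where they have C67G. Serpina1a carries T36A and G37C too, so Serpina1b differs from all other copies at these positions. From Serpina1b, the loop windows of Serpina1a, Serpina1c, Serpina1d and Serpina1e differed at 6.90%, 9.20%, 10.3% and 12.6% of bases (6, 8, 9 and 11 bases), compared with 2.69% to 3.04% in the rest of the coding sequence. The log2 fold changes of Serpina1a, Serpina1c, Serpina1d and Serpina1e were -1.27, -2.00, -0.84 and -5.54. Any link between loop differences and transcript level was not tested.

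Serpina1e was the most abundant alpha-1 antitrypsin transcript in control livers and among the rarest members in gSpns1-cKO 2 and 3. The gene spans chr12:103946931-103958975 (ENSMUSG00000072849). It had 8504 CPM in control 1, 12257.5 CPM in control 2 and 8893 CPM in control 3, compared with 526, 46.1 and 65.0 CPM in gSpns1-cKO 1, 2 and 3. In counts, these were 239245, 377649 and 225145 reads in control and 18946, 1772 and 2556 reads in gSpns1-cKO. All gSpns1-cKO libraries were far below all controls, and gSpns1-cKO 1 was well above the other gSpns1-cKO libraries. The mean fell from 9885 ± 2064 to 212 ± 272 CPM (log2 fold change -5.54, SE 1.30, adjusted p = 0.0292). Without gSpns1-cKO 1 the log2 fold change was -7.48 (SE 0.31, adjusted p = 8.53e-08). Without any other single library the value stayed between -5.66 and -5.06, but the adjusted p rose to between 0.0567 and 0.0764.

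Serpina1c, which encodes another alpha-1 antitrypsin, had 2093 CPM in control 1, 1600.2 CPM in control 2 and 2236 CPM in control 3. In gSpns1-cKO 1, 2 and 3 it had 660 CPM, 401 CPM and 423 CPM, all below the lowest control. Its mean fell from 1977 ± 334 to 495 ± 144 CPM (log2 fold change -2.00, SE 0.22, adjusted p = 0.000119). Serpina1a had 3172, 3118 and 3444 CPM in controls 1 to 3 and 1354, 1407 and 1261 CPM in gSpns1-cKO 1 to 3 (log2 fold change -1.27, SE 0.15, adjusted p = 0.000144). Serpina1d had 2958, 2473 and 2581 CPM in controls and 1288, 1629 and 1553 CPM in gSpns1-cKO, again without overlap (-0.84, SE 0.16, adjusted p = 0.00249). Serpina1b changed least of the 5 copies. It had 6198, 5816 and 6274 CPM in controls and 3014, 4532 and 3445 CPM in gSpns1-cKO, where replicate 2 came closest to the controls (-0.73, SE 0.19, adjusted p = 0.00984).

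Near-identical copies can exchange reads when the counting program assigns them. Of all 100-base words in the transcripts of a copy, 69.3% in Serpina1c, 42.8% in Serpina1a, 29.3% in Serpina1d, 14.8% in Serpina1b and 14.4% in Serpina1e also occurred in another gene. With 150-base words the shares were 59.7%, 35.1%, 23.3%, 11.9% and 7.36%. Besides the other copies, these words matched the pseudogene Gm8893, itself lower in gSpns1-cKO (log2 fold change -1.80). Serpina1c also overlaps the antisense gene B430119L08Rik by 429 exonic bases (log2 fold change -2.82), and whether the counting used strand is not given in the sources used here. Serpina1c and Serpina1a thus shared the largest part of their sequence with other genes, and how the shared reads were assigned was not tested.

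A sum over the 5 copies does not depend on how reads were split among them, apart from reads assigned to genes outside the set, such as Gm8893 or B430119L08Rik, or left unassigned. Summed, Serpina1a to Serpina1e had 22926, 25265 and 23428 CPM in controls 1 to 3 and 6842, 8014 and 6748 CPM in gSpns1-cKO 1 to 3. The controls lay within a narrow band and the gSpns1-cKO libraries in another, far below it. The mean fell 3.32-fold, from 23873 ± 1231 to 7201 ± 706 CPM (log2 ratio -1.73, or -1.28 with library size alone). Without Serpina1e the sum of the other copies was 13988 ± 851 CPM in control and 6989 ± 868 CPM in gSpns1-cKO, 2.00-fold lower.

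The make-up of the alpha-1 antitrypsin transcripts shifted as well. Serpina1e gave 37.1%, 48.5% and 38.0% of the summed counts in controls 1 to 3 and 7.69%, 0.576% and 0.963% in gSpns1-cKO 1 to 3. Serpina1b, the copy with the most reads in gSpns1-cKO, gave 27.0%, 23.0% and 26.8% in controls and 44.0%, 56.5% and 51.1% in gSpns1-cKO. The shares of Serpina1a (13.6 ± 1.19% and 18.7 ± 1.12%) and Serpina1d (11.2 ± 1.57% and 20.7 ± 2.12%) were higher in gSpns1-cKO without overlap, although the CPM of both were lower. The share of Serpina1c overlapped between the groups (8.34 ± 1.75% and 6.97 ± 2.40%). The shares of 1 library sum to a whole, so a lower share of 1 copy raises the others. The 95% Wilson intervals of these shares were at most 0.392 percentage points wide. Those of the Serpina3k, Serpina3m and Serpina3n shares given below were at most 0.548 points wide. These intervals cover counting error only.

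**Figure D3:**
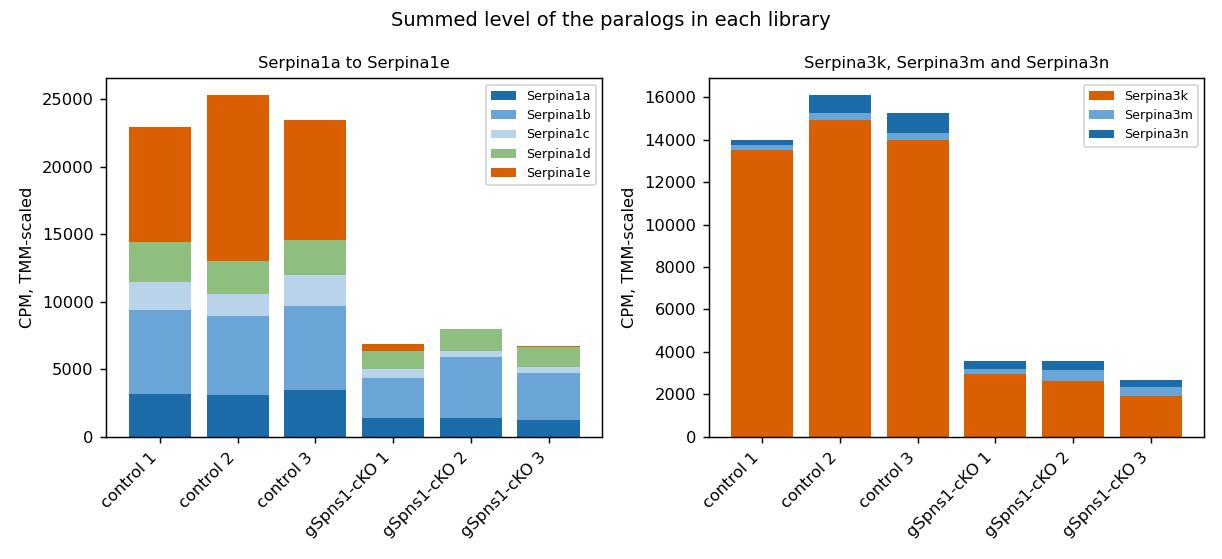
Summed level of the alpha-1 antitrypsin copies (left) and of Serpina3k, Serpina3m and Serpina3n (right) in each library, in TMM-scaled CPM, with 1 color per gene. The orange blocks of Serpina1e and Serpina3k make up 37.1% to 48.5% and 91.6% to 96.6% of the control bars, and the gSpns1-cKO bars are all shorter than the control bars.

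The start regions of the alpha-1 antitrypsin genes are almost the same, and they are shown because the copies moved to different degrees. Each stretch of 121 bases ends before the start given by RefSeq (GRCm38.p6) and overlaps no exon of its gene. The distance to the start is 62 bases in Serpina1e and 0 to 11 bases in the others. Capitals mark bases that differ from Serpina1b.
Serpina1a (chr12:103863625-103863745, minus strand): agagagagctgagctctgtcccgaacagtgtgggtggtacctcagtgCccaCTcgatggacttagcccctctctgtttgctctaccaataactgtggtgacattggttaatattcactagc
Serpina1b (chr12:103738200-103738320, minus strand): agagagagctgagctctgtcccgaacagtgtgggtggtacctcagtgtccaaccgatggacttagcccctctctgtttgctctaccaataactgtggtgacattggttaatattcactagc
Serpina1c (chr12:103904962-103905082, minus strand): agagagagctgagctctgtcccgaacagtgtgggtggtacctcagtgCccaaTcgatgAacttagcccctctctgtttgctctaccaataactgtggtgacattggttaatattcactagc
Serpina1d (chr12:103773634-103773754, minus strand): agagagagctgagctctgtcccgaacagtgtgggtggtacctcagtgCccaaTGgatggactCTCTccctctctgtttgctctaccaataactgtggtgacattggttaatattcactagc
Serpina1e (chr12:103956960-103957080, minus strand): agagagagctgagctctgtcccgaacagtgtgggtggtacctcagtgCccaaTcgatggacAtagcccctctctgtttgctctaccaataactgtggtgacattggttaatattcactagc
Serpina1a, Serpina1c and Serpina1e differed from Serpina1b at 3 bases each and Serpina1d at 7. The means of Serpina1e and Serpina1a were 46.5-fold and 2.42-fold lower, and any link between these differences and transcript level was not tested. The stretches of Serpina1b and Serpina1e lie inside the deposited spans of their genes, so the bases before those spans were not compared. The letters GTTAATATTC were taken from near the shared end of these stretches, so all 5 alpha-1 antitrypsin promoters had to hold them. On either strand they occurred in 0.067% of 32851 promoters, over the 250 bases before the start. The STAT letters TTCNNNGAA were in none of the 7 members with a promoter in the table, and in 7.02% of all promoters. Of these 7, 5 are the near-identical alpha-1 antitrypsin promoters, so they are too few and too alike to compare with that share. These matches describe letters only.

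The relatives of antichymotrypsin are spread over a second stretch of the same chromosome, on the plus strand. Their coding sequences, 1254 bases each, are 82.7% to 91.0% identical to each other and 55.7% to 58.4% identical to those of the alpha-1 antitrypsin genes. The loop windows, 90 bases in Serpina3k and 96 bases in Serpina3m and Serpina3n, show how far these inhibitors have diverged at the site that meets the protease.
Serpina3k (chr12:104345263-104345352, plus strand): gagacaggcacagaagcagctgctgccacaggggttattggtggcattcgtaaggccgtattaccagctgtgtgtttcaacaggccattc
Serpina3m (chr12:104393763-104393858, plus strand): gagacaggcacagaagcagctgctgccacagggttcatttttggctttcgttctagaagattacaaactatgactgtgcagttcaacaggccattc
Serpina3n (chr12:104413442-104413537, plus strand): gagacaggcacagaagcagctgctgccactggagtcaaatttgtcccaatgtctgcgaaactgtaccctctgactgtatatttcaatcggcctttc
The windows open with nearly the same bases and then diverge in sequence and in length.

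Serpina3k, an abundant plasma inhibitor of mouse liver that binds kallikrein, had the highest control mean of the members. The gene spans chr12:104338486-104346144 (ENSMUSG00000058207). It had 13507 CPM in control 1, 14926 CPM in control 2 and 13959.8 CPM in control 3, compared with 2944, 2619.9 and 1904 CPM in gSpns1-cKO 1, 2 and 3. The groups lay far apart, and the SD within each was small next to the difference. Its mean fell from 14131 ± 725 to 2489 ± 532 CPM (log2 fold change -2.50, SE 0.20, adjusted p = 1.84e-05), the lowest adjusted p of the 10 members. Leaving out any library kept the value between -2.65 and -2.34.

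Serpina3m went the other way in the means without passing the test. It had 220, 332 and 367 CPM in controls 1 to 3 and 258, 541 and 436 CPM in gSpns1-cKO 1 to 3. In both groups replicate 1 was lowest, and gSpns1-cKO 1 lay among the controls (log2 fold change 0.43, SE 0.29, adjusted p = 0.280). Without gSpns1-cKO 1 the value was 0.67 with an adjusted p of 0.0290. Serpina3k and Serpina3m share 60 exonic bases on the same strand, and 6.09% of the 100-base words of Serpina3m occur in Serpina3k. How reads of the shared stretch were assigned was not tested.

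Serpina3n, an acute phase inhibitor that can block granzyme B, had 258 CPM in control 1, 822 CPM in control 2 and 908 CPM in control 3. In gSpns1-cKO 1, 2 and 3 it had 360, 408 and 351 CPM. The gSpns1-cKO livers were alike, whereas control 1 was below all of them and controls 2 and 3 were above (log2 fold change -0.83, SE 0.46, adjusted p = 0.205). Without control 1 the log2 fold change was -1.23 (SE 0.15, adjusted p = 0.000474), so control 1 decides this call.

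Control 1 stood apart from the other controls in acute phase transcripts too. Saa1, which encodes serum amyloid A, had 66.3 CPM in control 1 and 3533 and 5459 CPM in controls 2 and 3, compared with 165, 19.0 and 44.1 CPM in gSpns1-cKO 1 to 3. Saa2 had 24.8 CPM in control 1 and 2723 and 4343 CPM in controls 2 and 3. Haptoglobin (Hp) had 3246 CPM in control 1 and 13729.9 and 13061.5 CPM in controls 2 and 3, and between 2809 and 3291 CPM in gSpns1-cKO. These genes were picked after their values were seen. Controls 2 and 3 were thus high in Serpina3n and in these reactants together, and control 1 was at or below the level of gSpns1-cKO in Serpina3n and Lcn2 (5.33 CPM, compared with at least 51.4 CPM). Over all genes tested, 21.3% were higher and 20.5% lower. Of the 34 acute phase signaling and reactant genes tested, 3 were higher and 12 lower, with a median log2 fold change of -0.70. Among them Saa3 (-2.83), Saa4 (-2.16), the receptor gene Lifr (-1.63), the mannose-binding lectin gene Mbl1 (-1.55) and Cebpa (-1.41), which encodes a hepatocyte transcription factor, were lower.

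**Figure D4:**
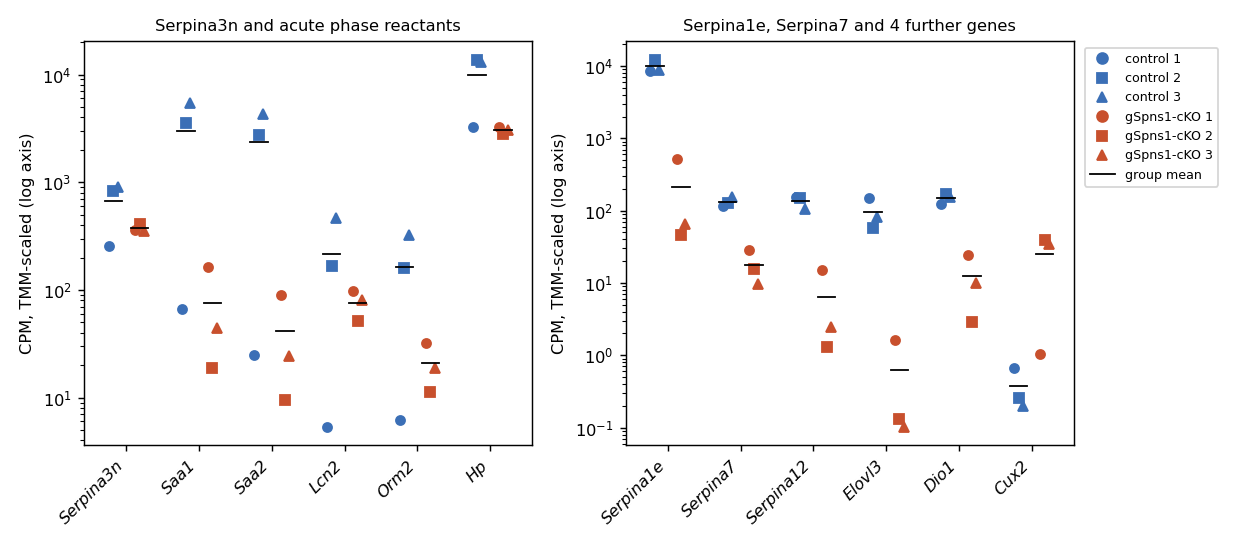
Levels by library, in TMM-scaled CPM on log axes, of Serpina3n beside acute phase reactants (left) and of Serpina1e and Serpina7 beside Serpina12, Elovl3, Dio1 and Cux2 (right), with black lines at the group means. On the left control 1 lies apart from controls 2 and 3 in each gene, and on the right gSpns1-cKO 1 lies above the other gSpns1-cKO libraries except in Cux2, where it lies below them.

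Summed, Serpina3k, Serpina3m and Serpina3n had 13986, 16080.0 and 15234 CPM in controls 1 to 3 and 3561, 3569 and 2691 CPM in gSpns1-cKO 1 to 3. The mean fell 4.61-fold (log2 ratio -2.21, or -1.76 with library size alone). Serpina3k gave 96.6%, 92.8% and 91.6% of this sum in controls and 82.7%, 73.4% and 70.8% in gSpns1-cKO, so the drop in the sum was carried by Serpina3k. The share of Serpina3m was 2.02 ± 0.417% in control and 12.9 ± 4.91% in gSpns1-cKO, without overlap.

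The hormone carriers differed from each other. Serpina7 (chrX:139079257-139085236, minus strand, ENSMUSG00000031271) encodes the thyroxine-binding globulin. It had 116 CPM in control 1, 129 CPM in control 2 and 155 CPM in control 3, compared with 28.4, 15.4 and 9.61 CPM in gSpns1-cKO 1 to 3. All gSpns1-cKO libraries were far below the controls, and the mean fell from 133 ± 19.9 to 17.8 ± 9.62 CPM (log2 fold change -2.90, SE 0.43, adjusted p = 0.00450). Serpina6, which encodes the carrier of corticosteroids, had 251, 207 and 297 CPM in controls and 114, 201 and 209 CPM in gSpns1-cKO. The groups met at control 2 and gSpns1-cKO 3, and gSpns1-cKO 1 was low alone (log2 fold change -0.53, SE 0.24, adjusted p = 0.105). DESeq2 called this change (-0.53, adjusted p = 0.0440). Neither gene shared a 100-base word with another gene, and their coding sequences were 49.8% to 55.3% identical to those of the other members and to each other.

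Of the 16 genes tested from a list of glucocorticoid and thyroid hormone handling, 1 was higher and 6 were lower (median log2 fold change -0.44). Over all genes tested, 21.3% were higher and 20.5% lower. Dio1, the deiodinase that activates thyroid hormone in liver, had 122, 172 and 154 CPM in controls 1 to 3 and 24.5, 2.92 and 10.1 CPM in gSpns1-cKO 1 to 3 (log2 fold change -3.58, SE 0.85, adjusted p = 0.0313). As in Serpina7, gSpns1-cKO 1 was the highest of its group. The kinase gene Sgk1 was higher (1.39), and Alb (-0.73), the mineralocorticoid receptor gene Nr3c2 (-0.69) and Tsc22d3 (-0.65) were lower. The last 3 were not called with library size alone (adjusted p between 0.210 and 0.319).

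The library gSpns1-cKO 1 stood apart from the other gSpns1-cKO livers in several genes that moved with Serpina1e and Serpina7. Serpina12 had 15.1 CPM in gSpns1-cKO 1 and 1.30 and 2.49 CPM in gSpns1-cKO 2 and 3, below 105 to 156 CPM in controls. Elovl3, a fatty acid elongase with higher expression in male liver, had 1.64 CPM there and 0.13 and 0.10 CPM in the others, with at least 57.7 CPM in controls. Cux2, a transcription factor typical of female liver, ran opposite, with 1.06 CPM in gSpns1-cKO 1, 39.3 and 35.1 CPM in gSpns1-cKO 2 and 3 and at most 0.68 CPM in controls. These companions, too, were picked after their values were seen, and their part in the result was not tested.

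Per kilobase of the deposited gene length, the level order of the members differed between the groups. In controls Serpina3k (6870 CPM per kb) and Serpina1e (6113) led with overlapping ranges, and Serpina1b (2524), Serpina1d (1916), Serpina1a (1771) and Serpina1c (1452) followed, where Serpina1d and Serpina1a overlapped. Serpina3n (321), Serpina3m (178) and Serpina6 (143) formed a lower group with overlapping neighbours, and Serpina7 (54.4) was lowest. In gSpns1-cKO livers Serpina1b (1517) led, Serpina3k (1210.2) and Serpina1d (1069) followed, each overlapping the one before, and Serpina1a (732) stood alone. Serpina1c (363), Serpina3m (239), Serpina3n (181), Serpina1e (131) and Serpina6 (99.2) overlapped neighbour by neighbour, and Serpina7 (7.28) was again lowest. Serpina1e therefore moved from rank 2 to rank 8. All 10 members together gave 3.23%, 3.64% and 3.26% of all counts in controls and 1.22%, 1.39% and 1.12% in gSpns1-cKO.

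The members other than Serpina7 lie among 28 Serpina genes within 799.544 kb of chromosome 12 (chr12:103614786-104414329, GRCm38). Of the 16 tested, 11 were lower and 0 higher, beside 20.5% of all genes lower and 21.3% higher. These 11 are the lower members other than Serpina7, counted above already, and the 5 other genes named below. Among the other Serpina genes, a list of 18 with Agt, 8 were tested, 5 were lower and none was higher (median log2 fold change -1.16). Serpina12, which encodes vaspin, fell from 136 ± 27.3 to 6.31 ± 7.67 CPM (log2 fold change -4.44, SE 1.10, adjusted p = 0.0361). The pseudogene Serpina4-ps1, directly beyond it, had 5629, 6265 and 1399 counts in controls and 46, 2 and 0 counts in gSpns1-cKO (-8.47, SE 1.38, adjusted p = 0.0110). Serpina11 fell from 85.1 ± 13.8 to 37.6 ± 0.765 CPM (-1.18, SE 0.13, adjusted p = 8.75e-05). Serpina9, at 1 to 59 counts a library (-4.40), and Serpina10, an inhibitor of coagulation factor Xa whose groups overlapped (-1.14), were the other 2. Both stand outside the naming rule and are named to complete the 5. Angiotensinogen (Agt, -0.21), Serpina3f (0.01) and Serpina3g (0.38) did not pass the test.

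**Figure D5:**
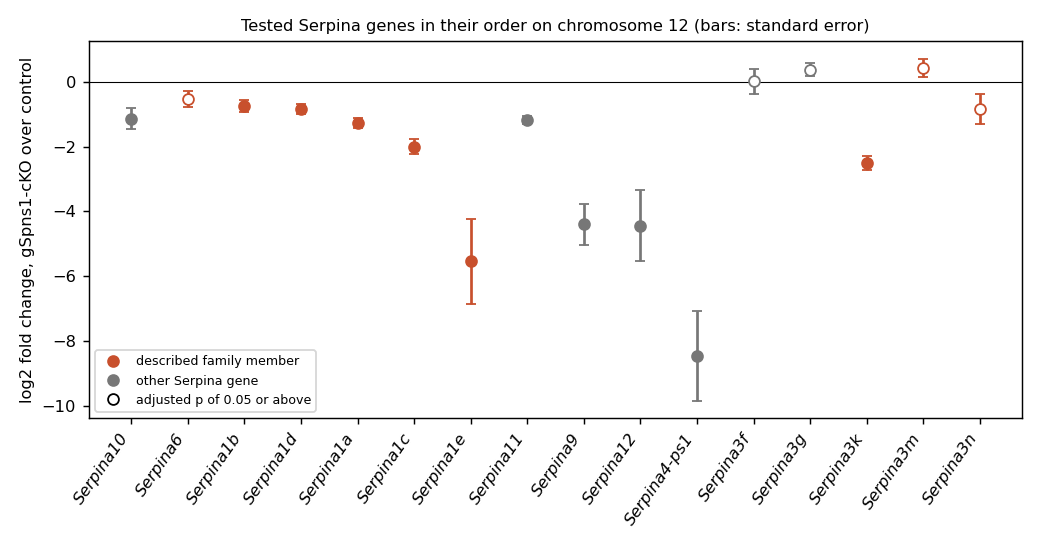
Log2 fold change with standard error of the 16 tested Serpina genes in their order along chromosome 12, evenly spaced and not to scale. Members described here are in red and other Serpina genes in grey, with open points for an adjusted p of 0.05 or above. The lowest 4 values, those of Serpina1e, Serpina9, Serpina12 and Serpina4-ps1, lie close together in the middle of the order, and no gene was called higher.

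Serpins of other clades moved in both directions. Of 22 listed, 14 were tested, 4 were higher and 5 lower, with a median log2 fold change of -0.03, compared with -1.06 over the 10 members. Over all genes tested, 21.3% were higher and 20.5% lower. Serpine2 (-3.25), which encodes protease nexin-1, and Serping1 (-1.52), which encodes the inhibitor of complement C1, were lower. The intracellular inhibitor gene Serpinb6a (1.61) and the collagen chaperone gene Serpinh1 (1.32) were higher. Among plasma serpins outside the naming rule, named after their values were seen, Serpinf1 (-0.98, adjusted p = 0.000584), which encodes pigment epithelium-derived factor, and Serpinf2 (-0.78, adjusted p = 0.00539), which encodes alpha-2 antiplasmin, were lower by edgeR's test. Antithrombin (Serpinc1, -0.38, adjusted p = 0.0603) and heparin cofactor II (Serpind1, -0.22, adjusted p = 0.229) did not pass it.

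Of the 15 genes tested from a list of proteases that serpins inhibit, 10 were lower and 2 higher (median log2 fold change -0.57). Over all genes tested, 20.5% were lower and 21.3% higher. Cela1 (-1.62), an elastase, Klkb1 (-1.35), the plasma prekallikrein gene, Hpn (-1.08), which encodes hepsin, and Hgfac (-0.95), which encodes the activator of hepatocyte growth factor, were lower. Gzmb (1.79), the granzyme gene of cytotoxic lymphocytes, was higher. Elane, the neutrophil elastase that alpha-1 antitrypsin inhibits, had 3 to 18 counts in every library and was too low to test. Prtn3, the gene of another neutrophil protease, overlapped between the groups and did not pass edgeR's test (-1.28, adjusted p = 0.369).

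The lists of possible regulators were mixed, beside 20.5% of all genes tested lower and 21.3% higher. Of 17 hepatocyte transcription factors tested, 1 was higher and 7 were lower (median -0.29), among them Dbp (-2.58), Onecut1 (-1.44), Foxa3 (-1.34), Tef (-0.94) and Ppara (-0.51), of which Onecut1 and Ppara were not called with library size alone. Of 11 genes of growth hormone and STAT5 signaling, 1 was higher and 3 lower, with a median (0.08) near that of all genes (0.01). Igfals (-1.04), the hormone receptor gene Ghr (-0.88) and Igf1 (-0.79) were lower, and Igfbp3 (0.85) was higher. Ghr was not called with library size alone (adjusted p = 0.0511).

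Of 16 genes with male or female bias in mouse liver, 4 were higher and 9 lower (median -2.24). Over all genes tested, 21.3% were higher and 20.5% lower. Hsd3b5 (-10.93) and Elovl3 (-7.29), known for higher expression in males, were lower, and Cyp2b9 (8.47) and Sult1e1 (7.59), known for higher expression in females, were higher. Cyp2b9 had 3.97 CPM in gSpns1-cKO 1 and 216 and 179 CPM in gSpns1-cKO 2 and 3. Cyp17a1, listed with the genes of female bias, was lower (-1.43), and Cyp4a12a, Cyp4a12b and Acot3 did not pass the test. The counts were not split by the direction of the bias. These livers were all of male type, as above.

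Genes of secretory export and quality control, which handle proteins such as alpha-1 antitrypsin on their way through the endoplasmic reticulum and Golgi, had a median nearer to 0 than the 10 members. Of 31 tested, 1 was higher and 10 lower (median -0.29), beside 21.3% of all genes higher and 20.5% lower. Derl3 (-3.85), which encodes a factor of protein retrotranslocation, was lowest, and Calr (-0.83), Os9 (-0.68), Sar1b (-0.63) and Lman2 (-0.62) were also lower. All of these but Derl3 were no longer called with library size alone (adjusted p between 0.0719 and 0.258).

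Markers of cell types moved with genotype in the same libraries, where 20.5% of all genes tested were lower and 21.3% higher. Of 7 hepatocyte markers found in the table, 4 were lower and 3 did not pass the test, and their summed level was 102381 to 114729 CPM in control and 62212 to 71250 CPM in gSpns1-cKO. Most of this sum was Alb, with 63646 to 77348 CPM in control and 37398 to 45060 CPM in gSpns1-cKO. With library size alone, Alb was not called by edgeR's test (adjusted p = 0.210). None of the 7 was at 0. Cps1 (0.36) and Ass1 (-0.07), hepatocyte enzymes of the urea cycle, did not pass. Ttr did not pass edgeR's test either (-0.47, adjusted p = 0.0545), although it was lower without overlap. The median log2 fold change of the 7 was -0.47. Macrophage markers were higher for 8 of 8, with sums of 125 to 184 and 540 to 734 CPM, as were 5 of 5 cholangiocyte markers (44.1 to 62.8 and 170 to 279 CPM). Stellate markers were higher for 4 of 6 (67.2 to 87.6 and 141 to 183 CPM) and endothelial markers for 4 of 6 (128 to 143 and 184 to 223 CPM). Of 8 neutrophil markers the 3 that could be tested were higher, at sums of 2.17 to 4.28 and 5.78 to 10.6 CPM, and Ly6g was at 0 in all libraries but control 2. The part of these markers in the lower serpin levels was not tested.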

How the data were processed

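Liver RNA was selected by poly-A and sequenced from 3 control and 3 gSpns1-cKO mice by a commercial service. The submitters' processing notes name the read processor fastp, the aligner HISAT2 2.0.5, the counting program featureCounts 1.5.0-p3 and the genome build mm10. Their settings, such as the treatment of reads that match several genes and the strand setting, are not given in the sources used here. The authors deposited whole-number counts per gene and library without normalization, and these were used for all tests. FPKM values deposited by the authors divide counts by gene length and a library total, which was 1.00 to 1.02 times the summed counts scaled by TMM. The authors deposited group means and their own comparison as well, which were not used. The gene length as deposited served to compare levels between genes.

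Genes were filtered with filterByExpr and scaled by TMM in edgeR 4.0.16 (R 4.3.3). Genotypes were tested with the quasi-likelihood F test of edgeR (robust setting, no covariate), and p-values were adjusted by Benjamini-Hochberg over 15449 genes (threshold 0.05). The standard error was the size of the log2 fold change over the square root of F. The script was tested on simulated data. The labels number separate livers within each group. No pair of libraries within a group agreed within sampling noise (chi-square per gene 41.1 to 122). Reads carry no molecular identifiers, so intervals cover counting error only. Sums and shares of paralogs were given without a test. Sequences came from GENCODE M21 transcripts and RefSeq promoters, both GRCm38, in which 7 of the 10 members were found among the promoters.

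The 10 members and 10 gene lists, with 6 marker lists, were chosen with earlier results of these data known. From each list, up to 5 genes are named that passed the threshold, did not overlap between groups and had a mean of at least 1 CPM, taken by the size of the log2 fold change. Some genes that this rule selects are not reported here. Alternatives were library size only, upper-quartile scaling, DESeq2 1.42.0, limma-voom (limma 3.58.1), other count filters and thresholds, summed paralogs, a replicate block and leaving out libraries.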

Additional observations from a re-analysis of the deposited data

How the results depend on the processing

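Serpina1a, Serpina1c, Serpina3k and Serpina7 kept their direction and their call under every alternative that fitted them as single genes, and no member changed direction under these. The count of members called lower ranged from 5 (library size only, or at least 2-fold) to 8 (DESeq2, or without replicate 1 of both groups, an alternative chosen after seeing the data). With the paralogs summed before the fit, 3 of the 4 resulting entries were lower. The count called higher was 1 instead of 0, each time Serpina3m, with library size only, with a filter of at least 1 count in any library, and without replicate 1 of both groups. Leaving out each library in turn gave 6 to 7 lower and 0 to 1 higher. With the filter of at least 1 count, Serpina1e (adjusted p = 0.0570) was not called and Serpina6 (-0.54, adjusted p = 0.00102) was. Without replicate 1 of both groups, Serpina3n was lower (-1.19, adjusted p = 0.000289) and Serpina1e was -7.58 in edgeR's quasi-likelihood F test, with p adjusted by Benjamini-Hochberg.

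Spns1 was -0.43 with library size only, -0.82 (adjusted p = 0.119) without replicate 1 of both groups, and between -1.18 and -0.68 with each library left out. The summed log2 ratios with library size only were -1.28 for Serpina1a to Serpina1e and -1.76 for Serpina3k, Serpina3m and Serpina3n, and ranged from -1.81 to -1.68 and from -2.27 to -2.08 with each library left out. The cause of these shifts was not tested.

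Over all genes tested, libraries with the same replicate number did not deviate together (correlations 0.05, 0.03 and -0.02). With 3 mice per group this cannot exclude a pairing, such as by litter, and the labels name none. A fit with the replicate number as a block kept 7 members lower and 0 higher, with Serpina1e at -6.49 (adjusted p = 0.0476) and Spns1 at -0.90, and called 3084 genes higher and 3016 lower. Depth does not limit the abundant members, whereas 10 of the 18 other Serpina genes had too few counts to test. The values are further limited by the choice of scaling, the 3 mice per group, the sharing of reads between copies and the libraries control 1 and gSpns1-cKO 1.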

Other observations

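Among the values outside the comparisons above, 10 of the 18 other Serpina genes were not tested. Serpina3j had 0 counts in all 6 libraries, which allows up to 3 counts in each. Serpina16 had 0 to 4 counts and Serpina5, the protein C inhibitor, had 7, 11 and 8 counts in controls 1 to 3 and 5, 2 and 3 counts in gSpns1-cKO 1 to 3.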
